A study of Mus musculus with 4 samples.

Results

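Joined-end sites are ATAC-seq peaks that lie near ends of neighbouring genes: each is within 1 kb of an annotated end of 2 or more different protein-coding genes in RefSeq. They were taken from all distinct intervals of 2 peak lists on mouse chromosomes 1 to 19, build mm10. There were 2624 such intervals among 36079. The knockout list held 1382 of 20845 intervals (6.63%) and the control list 1242 of 15241 (8.15%). ATAC-seq uses the Tn5 transposase to cut and tag DNA that is not covered by nucleosomes, so a peak marks open chromatin. The nuclei came from pachytene spermatocytes of mouse testis. One group carries the genotype label Znhit1_KO and the other CTRL, both with the tag P35. Each genotype has 2 libraries, and 1 peak list per genotype was analysed here, recorded for the first library. How many reads stand behind each list is unknown. How Znhit1 was removed, and whether the controls carry any allele or driver, is not given in the labels.

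Many mammalian genes are transcribed away from a partner whose start lies close by on the other strand, an arrangement called head-to-head or divergent. Such pairs share one open, often CpG-rich promoter region, and they are common among genes for DNA repair, mitochondria, ribosomes and histones. ZNHIT1 is a subunit of the SRCAP remodelling complex, which places the histone variant H2A.Z in nucleosomes next to promoters. Pachytene is the stage of the first meiotic prophase in which homologous chromosomes are fully synapsed and recombination is completed. A head-to-tail pair has both genes on one strand, and a tail-to-tail pair ends at the shared position from opposite strands.

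Each list holds positions only, with no height, fold or summit, so a site was described by its width, by its presence in each list and by how often its interval was repeated. The lists had 20845 and 15241 distinct autosomal intervals, with a median width of 351 bp for the knockout and 427 bp for the control. Markers of the labelled cell type had open ends: 9 of 10 pachytene markers had an end site in each list, and Spata22 had none. Spermatogonial markers had one for 3 of 19 genes in the knockout list and 4 in the control list, and spermatid markers for 11 and 7 of 28. Sertoli cell markers had 2 of 16 in each list, and Leydig, peritubular, endothelial and immune markers 2 and 0 of 18. For comparison, 9318 of all 20665 autosomal coding genes had an end site in either list.

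Promoter sequences are given first for the pair that holds the targeted gene. The site between Znhit1 and Plod3, which encodes a lysyl hydroxylase of collagens, was in both lists, at chr5:136986801-136987492 (692 bp) in the knockout and chr5:136986774-136987406 (633 bp) in the control. Znhit1 lies on the minus strand and Plod3 on the plus strand. Their nearest RefSeq transcript starts are 115 bp apart, and both fall inside the site in both lists. Another annotated Znhit1 start lies outside it, so that the outermost 5′ ends of the genes are 940 bp apart and only that of Plod3 is inside. The windows below hold 300 bases, 250 before and 50 after a transcript start, 5′ to 3′ on the gene's own strand, from RefSeq on GRCm38.p6 (the assembly of mm10). Znhit1 is chr5:136986855-136987154, minus strand, and Plod3 is chr5:136986769-136987068, plus strand, so 214 bases are common to both. Capitals mark matches, on either strand, to motifs searched by their letters: NRF1 GCGCATGCG, ETS CCGGAAGT, CCAAT, YY1 AAGATGGCG, SP1 GGGCGG, CRE TGACGTCA, ZNF143 ACTACAATT, MYB (CAACTG or CAACGG, or with T as first letter, TAACTG or TAACGG), RFX GTTGCC and TATAAA.
Znhit1: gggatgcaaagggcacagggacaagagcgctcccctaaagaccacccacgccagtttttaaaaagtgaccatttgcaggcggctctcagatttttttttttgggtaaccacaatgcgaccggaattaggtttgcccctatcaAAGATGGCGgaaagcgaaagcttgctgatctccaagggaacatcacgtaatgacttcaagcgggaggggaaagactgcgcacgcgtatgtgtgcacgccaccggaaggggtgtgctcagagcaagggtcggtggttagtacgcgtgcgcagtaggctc
Plod3: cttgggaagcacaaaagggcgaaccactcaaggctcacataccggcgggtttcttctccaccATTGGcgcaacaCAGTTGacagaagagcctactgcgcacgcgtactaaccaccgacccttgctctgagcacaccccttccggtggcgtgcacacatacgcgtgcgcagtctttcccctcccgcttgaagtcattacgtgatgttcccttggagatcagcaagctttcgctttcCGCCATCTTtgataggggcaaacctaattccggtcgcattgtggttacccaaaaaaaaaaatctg
Both windows carry the same YY1 letters, read forward in Znhit1 and reversed in Plod3. GC content was 53.7% and 53.3%, with 18 and 19 CpG.

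Cep57, for a centrosomal protein, and its neighbour Fam76b had the widest shared head-to-head site among those at exactly 2 genes without predicted names, the limit of all rankings by width here, 1711 bp in the knockout (chr9:13826534-13828244) and 1823 bp in the control (chr9:13826463-13828285). It holds the starts of both genes, 609 bp apart at the nearest. Rankings by arrangement, here and below, also took only pairs with strand matched for both genes. The windows are Cep57, chr9:13827058-13827357, minus strand, and Fam76b, chr9:13827466-13827765, plus strand.
Cep57: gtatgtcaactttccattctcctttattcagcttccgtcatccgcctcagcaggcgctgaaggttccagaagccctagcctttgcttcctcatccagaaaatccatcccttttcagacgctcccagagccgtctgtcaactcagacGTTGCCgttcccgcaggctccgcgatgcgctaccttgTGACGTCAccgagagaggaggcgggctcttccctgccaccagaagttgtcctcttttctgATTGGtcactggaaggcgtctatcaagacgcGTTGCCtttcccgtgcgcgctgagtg
Fam76b: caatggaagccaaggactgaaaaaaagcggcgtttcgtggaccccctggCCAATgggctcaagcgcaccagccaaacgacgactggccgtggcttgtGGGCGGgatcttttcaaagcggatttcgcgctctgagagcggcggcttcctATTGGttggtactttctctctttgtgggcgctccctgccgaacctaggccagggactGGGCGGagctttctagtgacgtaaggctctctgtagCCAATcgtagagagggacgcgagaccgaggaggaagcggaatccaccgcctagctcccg
Cep57 shows a CRE match, 2 RFX matches and 1 CCAAT match, and Fam76b shows 3 CCAAT and 2 SP1 matches.

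Among pairs with strand matched, the widest head-to-head site of the knockout list alone lay at the overlapping genes Csad and Zfp740 (chr15:102203312-102204423, 1112 bp). The nearest control interval lay 61150 bp away. Csad encodes an enzyme of taurine synthesis and Zfp740 a zinc finger protein. Only Zfp740 has a RefSeq start inside it. Of the windows shown, that of Zfp740 (chr15:102203750-102204049, plus strand) lies wholly in the site and that of Csad (chr15:102205003-102205302, minus strand) outside it.
Csad: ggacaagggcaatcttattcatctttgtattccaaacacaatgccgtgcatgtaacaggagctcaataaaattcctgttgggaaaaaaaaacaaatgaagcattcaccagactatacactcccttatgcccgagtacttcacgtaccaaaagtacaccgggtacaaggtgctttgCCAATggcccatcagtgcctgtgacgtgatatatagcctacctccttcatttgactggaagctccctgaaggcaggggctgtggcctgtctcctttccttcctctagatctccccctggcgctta
Zfp740: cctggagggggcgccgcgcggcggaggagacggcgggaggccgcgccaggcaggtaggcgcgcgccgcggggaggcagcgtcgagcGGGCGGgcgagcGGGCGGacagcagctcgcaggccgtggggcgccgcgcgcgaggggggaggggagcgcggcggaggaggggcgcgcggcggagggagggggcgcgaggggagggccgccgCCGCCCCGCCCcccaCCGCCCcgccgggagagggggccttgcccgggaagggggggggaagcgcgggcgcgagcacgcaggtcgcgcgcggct
The 2 windows differ in composition: Zfp740 has 85.3% GC, 54 CpG and 5 SP1 matches, and Csad 47.3% GC and 6 CpG.

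In the control list alone, the widest such site was at Dedd2 and Zfp526 (chr7:25219056-25220078, 1023 bp). It lay 1144 bp from a knockout interval and held a start of Dedd2 alone, which encodes a death effector domain protein. The Dedd2 window (chr7:25219810-25220109, minus strand) has 269 of its bases in the site, and the Zfp526 window (chr7:25221175-25221474, plus strand) has 0.
Dedd2: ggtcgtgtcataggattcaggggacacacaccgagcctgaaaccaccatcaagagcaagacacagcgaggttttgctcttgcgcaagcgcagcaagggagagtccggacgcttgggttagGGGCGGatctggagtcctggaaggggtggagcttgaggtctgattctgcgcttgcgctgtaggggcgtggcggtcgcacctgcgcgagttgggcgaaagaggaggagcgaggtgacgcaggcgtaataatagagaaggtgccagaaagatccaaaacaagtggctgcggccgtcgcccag
Zfp526: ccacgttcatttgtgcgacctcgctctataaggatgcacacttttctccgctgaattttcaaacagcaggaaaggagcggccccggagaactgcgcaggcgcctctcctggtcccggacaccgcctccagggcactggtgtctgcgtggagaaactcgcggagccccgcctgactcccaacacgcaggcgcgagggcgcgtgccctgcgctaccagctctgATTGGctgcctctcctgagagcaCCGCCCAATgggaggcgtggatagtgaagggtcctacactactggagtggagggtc

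A pair of further windows, chosen after their values were seen, shows sites of the knockout list alone that hold the starts of both genes. Kif9 encodes a kinesin of the sperm flagellum, and its partner is Klhl18. Their site is chr9:110476277-110477172 (896 bp), and the Kif9 window is chr9:110476708-110477007, plus strand. H2ac13 encodes a replication-coupled histone H2A, and its partner is H2bc13, for histone H2B. That site is chr13:21716125-21716485 (361 bp), and the H2ac13 window is chr13:21716162-21716461, plus strand.
Kif9: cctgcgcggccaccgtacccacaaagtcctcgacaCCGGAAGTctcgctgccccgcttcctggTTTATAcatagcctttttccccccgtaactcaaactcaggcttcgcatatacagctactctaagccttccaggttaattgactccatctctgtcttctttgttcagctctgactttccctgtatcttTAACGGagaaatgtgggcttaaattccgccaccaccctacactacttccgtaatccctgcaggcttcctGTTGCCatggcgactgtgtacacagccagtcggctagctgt
H2ac13: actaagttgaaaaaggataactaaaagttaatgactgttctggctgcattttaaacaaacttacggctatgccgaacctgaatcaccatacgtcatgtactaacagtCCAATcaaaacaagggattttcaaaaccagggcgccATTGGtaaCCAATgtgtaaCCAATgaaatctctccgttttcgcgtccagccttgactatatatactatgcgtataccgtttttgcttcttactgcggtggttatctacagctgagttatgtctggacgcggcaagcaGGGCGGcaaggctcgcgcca
Kif9 shows 1 ETS, 1 RFX, 1 MYB and 1 TATA match. H2ac13 shows 4 CCAAT matches and 1 SP1 match. All of these are descriptions of letters and name no bound factor.

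Most joined-end sites were open in both genotypes. In the knockout list 1084 of 1382 overlapped a control interval by at least 1 bp (78.4%, Wilson 95% interval 76.2 to 80.5) and 298 did not (21.6%). In the control list 1091 of 1242 overlapped a knockout interval (87.8%, 85.9 to 89.5) and 151 did not (12.2%). Over all autosomal intervals, 67.8% of the knockout list and 55.8% of the control list stood alone. At sites near an end of 1 coding gene these shares were 33.3% and 20.8%. Intervals cover counting error only, and no test between genotypes was made with 1 list per genotype.

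Joined-end sites were wide, and width went with overlap. Their median was 710.5 bp (knockout) and 712 bp (control), against 613 and 617 bp at single gene ends. Shared sites had medians of 796.5 and 753 bp, and sites of 1 list alone 411 and 438 bp. Within each width class, the share in both lists was higher at joined ends than at single ends. Below 300 bp it was 32.2% against 21.3% in the knockout list and 70.3% against 38.7% in the control list. At 300 to 499 bp it was 54.3% against 47.1% and 70.8% against 64.0%. At 500 to 799 bp the shares were 81.7% against 75.7%, and 89.6% against 86.6%. At 800 bp or more they were 95.9% against 92.0%, and 96.6% against 95.9%. The Wilson intervals of the 2 kinds of site were apart below 300 bp in both lists and from 500 bp up in the knockout list, and they overlapped in the other classes.

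**Figure D1:**
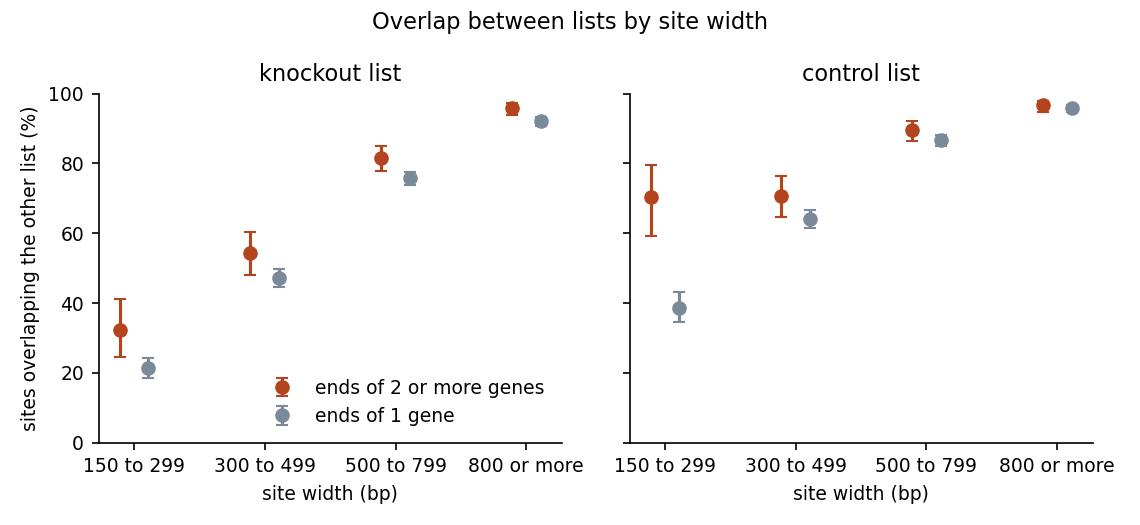
Share of sites (%) that overlapped the other list, by site width in bp, for sites at ends of 2 or more coding genes and at ends of 1 gene. Points are shares and bars Wilson 95% intervals; in each width class of both lists the joined-end point lies above the single-end point.

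A measure that went with presence in both lists was repetition of an interval on several lines. In the knockout list 73.8% of shared and 32.2% of lone joined-end sites were repeated, and in the control list 73.5% and 49.7%. With repeated intervals alone, there were 249 lone joined-end sites of the knockout and 223 of the control. With the 15241 widest peaks from each list they numbered 243 and 160. The ratio of lone knockout to lone control sites was 1.12 and 1.52 under these settings and 1.97 over all intervals.

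The knockout list had more joined-end sites on 17 of 19 autosomes, the same number on 1 (46 and 46 on chromosome 16), and fewer on chromosome 19 (63 against 65). As a share of each list's intervals the order was the reverse: the control percent was the larger on 18 autosomes, such as 10.2% against 8.90% on chromosome 7 and 11.3% against 7.84% on chromosome 19. The exception was chromosome 18, with 3.44% in the control and 3.64% in the knockout. Chromosome 7 held the most sites, 137 and 119.

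Where a joined-end site of one list met exactly 1 site of the other, widths could be paired. Among 987 such sites the log2 width ratio, knockout over control, had a median of 0.04 and quartiles at -0.26 and 0.34. The knockout interval was wider at 522 and the control interval at 463, and 2 were equal. It was over 2-fold wider in the knockout at 52 sites and in the control at 25. These are 5.27% and 2.53% of the paired sites. At 3855 paired single-end sites the median was 0.03, with 5.45% and 3.24% over 2-fold wider in the knockout and the control.

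**Figure D2:**
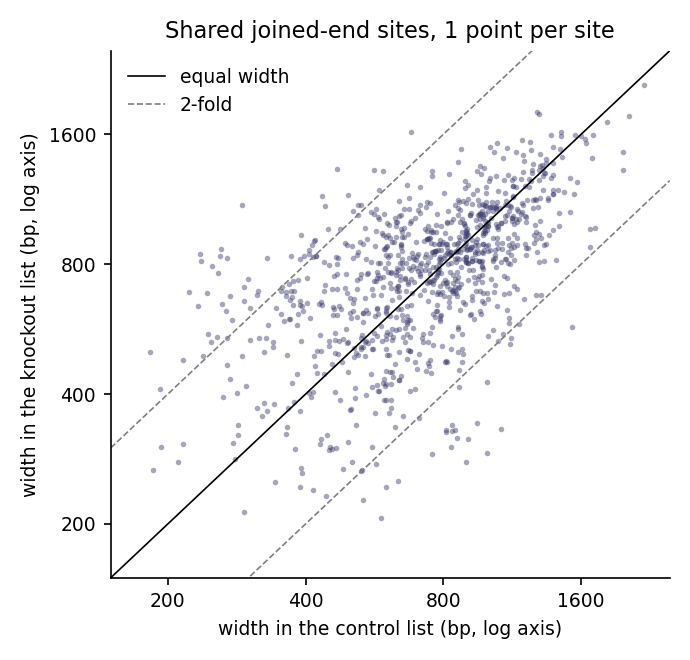
Width in the knockout list against width in the control list (bp, log axes) for 987 joined-end sites matched 1 to 1; each point is a site. Points scatter on both sides of the line of equal width, and 77 of them lie beyond the dashed 2-fold lines.

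At 7 of the widest shared pairs, Cep57 and Fam76b among them, the control interval was the wider one. Hnrnpa2b1 and Cbx3, for an RNA-binding protein and a heterochromatin protein, had 1459 bp (knockout) and 1971 bp (control) on chromosome 6. Hs2st1 and Selenof had 1324 and 1972 bp on chromosome 3. The splicing factor gene Srsf2 with Mfsd11 had 1591 and 1696 bp, and Hnrnpk with Rmi1, a partner of the BLM helicase, 1558 and 1632 bp. Ewsr1 with Rhbdd3 had 1586 and 1603 bp, and Pask with Ppp1r7 1527 and 1643 bp. The widest shared head-to-tail pair, Prr14 and Fbrs on chromosome 7, went the other way, with 1780 and 1295 bp.

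Almost every site joined a single pair. In the knockout list 1354 sites lay near ends of 2 genes and 26 near ends of 3, and in the control list 1221 and 21. The site with the most genes, 25, lay on chromosome 18 between the common end of the clustered protocadherin genes Pcdhg, 971 bp away, and Diaph1, 337 bp away on the other side. It was 421 bp wide and stood in the knockout list alone. One site on chromosome 17 reached 5 genes (Gm20517, Usp49, Tomm6, Frs3 and Prickle4), with 633 bp in the knockout. The overlapping control site of 302 bp reached 3 of them. At 3 genes, Cyb5d1, Naa38 and Tmem88 on chromosome 11 had 2 sites in the knockout list alone, of 459 and 657 bp. In the control list alone were the sites at Hykk, AY074887 and the proteasome gene Psma4 (635 bp) and at Anxa9, LOC115489748 and Cers2 (404 bp).

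Read as gene pairs, the sites gave 1794 pairs, 1076 with a site in both lists (60.0%), 573 in the knockout list alone and 145 in the control list alone. The site beside the protocadherins by itself gives 300 pairs. Without pairs seen at sites of 5 or more genes alone, 1487 pairs remained, a choice made after seeing the data. Then 1076 had a site in both lists (72.4%, 70.0 to 74.6), against 266 in the knockout list alone (17.9%) and 145 in the control list alone (9.75%). The sites of the 2 lists overlapped in 1069 of the 1076. These pairs held 2812 genes of the 20665 autosomal coding genes.

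Head-to-head pairs made up most of them. Strand was matched for both genes of 1133 pairs, of which 786 were head-to-head (69.4%), 253 head-to-tail (22.3%) and 41 tail-to-tail (3.62%). In the remaining 53 the nearest ends fitted none of these. The genes overlap in 280 of the 786 head-to-head pairs (35.6%). By list this was 33.9% of head-to-head pairs in both lists, 41.6% for the knockout list alone and 47.8% for the control list alone. Of 842 pairs with a site in both lists, 77.3% were head-to-head (74.4 to 80.0), 17.5% head-to-tail and 0.831% tail-to-tail. Of 183 pairs of the knockout list alone the shares were 48.6% (41.5 to 55.8), 34.4% and 10.4%. Of 108 pairs of the control list alone they were 42.6% (33.7 to 52.0), 39.8% and 13.9%. The pairs of the knockout and control lists alone thus had overlapping intervals, both below that of the pairs found in both. Where a site overlapped any interval of the other list, 650 of 869 pairs were head-to-head (74.8%).

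The same order held when all close pairs were the base. Of 976 head-to-head pairs with ends within 2 kb, 80.5% had a joined-end site (77.9 to 82.9): 66.7% in both, 9.12% for the knockout only and 4.71% for the control only. Of 879 head-to-tail pairs 28.8% had one (25.9 to 31.9), and of 1019 tail-to-tail pairs 3.93% (2.90 to 5.30). By the gap between head-to-head genes, the share was 90.6% at 0 to 199 bp, 86.6% at 200 to 499 bp, 65.9% at 500 to 999 bp and 16.1% at 1000 to 2000 bp. It was 80.0% where the genes overlap. The 1 kb rule itself lowers the share for wide gaps, since 1 site must then reach both ends.

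**Figure D3:**
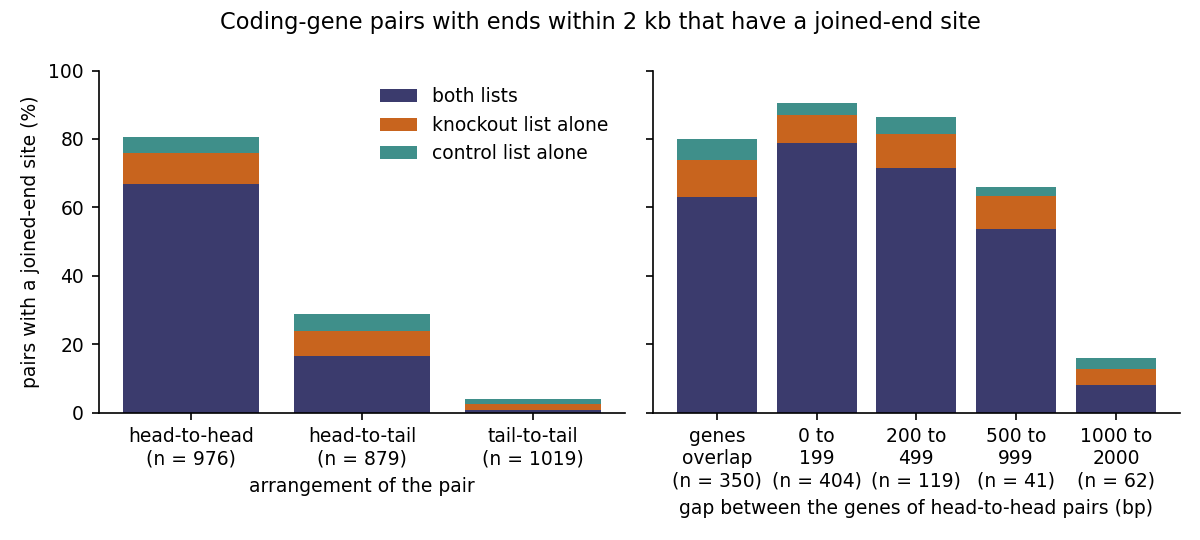
Share (%) of coding-gene pairs with ends within 2 kb that had a joined-end site in both lists, the knockout list alone or the control list alone. The left panel splits pairs by arrangement, with 80.5% of head-to-head, 28.8% of head-to-tail and 3.93% of tail-to-tail pairs; the right panel splits head-to-head pairs by the gap between the genes in bp.

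Sites at head-to-head pairs mostly spanned the 5′ ends of both genes. Both annotated 5′ ends were inside the interval at 567 of 771 sites in the knockout list (73.5%) and at 518 of 712 in the control list (72.8%). For sites of 1 list alone these were 43.2% and 40.7%. RefSeq transcript starts, of which a gene can have several, gave a like picture. Starts of both genes were inside 77.0% of the shared sites in the knockout list (73.7 to 80.1) and 73.7% in the control list (70.2 to 76.9). For sites of 1 list alone the values were 39.0% (46 of 118) and 37.3% (22 of 59). No start of either gene was inside 31 of 118 lone knockout sites and 13 of 59 lone control sites, against 25 and 33 of 653 shared ones. Shared head-to-head sites were also wider, with medians of 826 bp (knockout) and 800 bp (control) against 436 and 529 bp for lone ones. A wider interval can hold more starts, and these shares were not split by width.

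**Figure D4:**
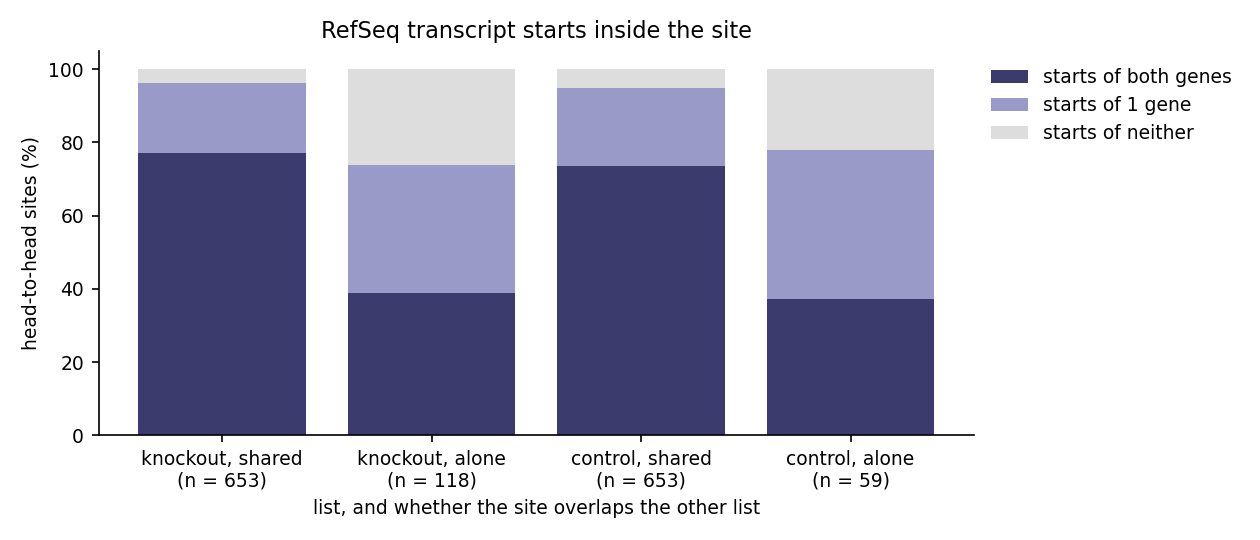
Head-to-head sites (%) that hold RefSeq transcript starts of both genes, of 1 gene or of neither, for shared and lone sites of each list. Starts of both genes were inside 77.0% and 73.7% of shared sites and 39.0% and 37.3% of lone sites. Shared sites were wider than lone ones, and the shares are not split by width.

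Head-to-tail sites mostly sat at the 5′ end of 1 of the genes. They lay nearer to the 5′ than to the 3′ end at 184 of 205 sites in the knockout list (89.8%) and 158 of 183 in the control list (86.3%). Among those of the control list alone it was 23 of 34 (67.6%), and of the knockout list alone 54 of 64 (84.4%). At tail-to-tail pairs there were 17 sites in each list, of which 14 in the knockout and 13 in the control stood alone, and 0 of these lone sites held a transcript start. The shared share fell in this order of arrangements: 84.7% and 91.7% of head-to-head, 68.8% and 81.4% of head-to-tail, and 17.6% and 23.5% of tail-to-tail sites in the knockout and control lists. Median site widths fell in the same order. They were 776, 590 and 320 bp in the knockout list and 774.5, 600 and 387 bp in the control list. The shared shares by arrangement were not split by width. The widest lone tail-to-tail sites were at Creld1 and Prrt3 in the knockout list (806 bp, chromosome 6) and at Rabep2 and Atp2a1, for a calcium pump of the sarcoplasmic reticulum, in the control list (588 bp, chromosome 7).

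Windows at starts of head-to-head pairs with a joined-end site were richer in CpG than those of pairs without one. For genes of pairs with a site in both lists (n = 1295) the median GC content was 63.0% with 25 CpG per 300 bases. For pairs of the knockout list alone (n = 176) it was 60.3% with 21, and for those of the control list alone (n = 92) 59.3% with 20.5. Genes of close head-to-head pairs without a joined-end site (n = 388) had 57.0% and 13, and all 16457 coding genes with a window 56.7% and 14. Genes at shared single-end sites (n = 3204) had 63.0% and 24 per 300 bases, close to the pairs with a site in both lists.

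Motif letters differed between these sets by motif. ETS letters were in 14.1% of windows of pairs in both lists, 11.9% and 10.9% of pairs of the knockout and control lists alone, 6.44% of pairs without a site, 9.77% at shared single ends and 5.44% of all windows. YY1 letters were in 5.64%, 4.55%, 4.35%, 1.55%, 4.03% and 1.92% in the same order. SP1 letters were in 66.8%, 68.8%, 57.6%, 48.2%, 74.2% and 47.3% in that order. NRF1 letters were in 5.33% of windows of pairs in both lists and 6.52% at shared single ends. TATAAA was in 4.17% of windows of pairs in both lists, 7.95% and 6.52% of pairs of 1 list alone, and 13.5% of all windows. Windows of 1 pair often overlap and then share their letters, so they are not independent.

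Textbook head-to-head pairs were found in both lists about as often as close head-to-head pairs in general. Of 21 textbook pairs, 13 had a site in both, 5 in neither and 3 in the knockout list alone, with 0 in the control list alone. Of all 976 close head-to-head pairs, 66.7% had a site in both lists and 190 had none. A further 9.12% had one for the knockout only and 4.71% for the control only. Hspd1 and Hspe1, the mitochondrial chaperonin and its co-chaperonin, had 1304 bp (knockout) and 1329 bp (control). Brca1, for homologous recombination, with Nbr1 had 1188 and 1426 bp. Atm, the kinase of double-strand breaks, with Npat, a regulator of histone genes, had 1039 and 520 bp. Gart with Son had 1511 and 761 bp, and the mitochondrial genes Mrps12 and Sars2 had 836 and 260 bp. The knockout interval was 2.00, 1.99 and 3.22 times as wide at Atm, Gart and Mrps12. Over the 13 pairs it was the wider one at 8 and the narrower one at 5. Over all 987 paired joined-end sites these counts were 522 and 463.

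The remaining textbook pairs show how a pair can miss a call. Surf1 and Surf2 (275 bp) and Tk1 and Afmid (415 bp) had a knockout site and no end site in the control list. Mtx1 and Thbs3 had a knockout site of 1033 bp that overlapped a control interval, which did not reach both genes. Col4a1 with Col4a2, Col4a3 with Col4a4, and Tap1 with Psmb9 had no end site in either list. The first 4 genes encode basement membrane collagens, and Tap1 and Psmb9 serve antigen presentation. Tbp with Psmb1, and Brca2 with Zar1l, whose ends are 4103 bp apart, had an end site in both lists but no joined-end site.

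Lone joined-end sites were also set against end sites of the same genes in the other list. Of the 298 lone knockout sites, 190 (63.8%) joined genes none of which had an end site in the control list, 59 had some and 49 had one for every gene. Of the 151 lone control sites the counts were 80 (53.0%), 35 and 36. An interval of the other list lay within 500 bp for 36 (12.1%) and 24 (15.9%). These shares were not computed for lone single-end sites, so nothing particular to joined ends can be read from them.

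Among sites at exactly 2 genes without predicted names, the widest of the knockout list alone were at Scrib and Puf60 (1206 bp, chromosome 15), for a cell polarity scaffold and a splicing factor, and at Mterf3 and Ptdss1 (1165 bp, chromosome 13). Strand was not matched for either of these pairs, so neither could rank as head-to-head. Csad and Zfp740 came next. Polr2a, for the largest subunit of RNA polymerase II, and Slc35g3 had a head-to-tail site of 993 bp on chromosome 11, 75943 bp from any control interval. Mrpl13, for a mitochondrial ribosomal protein, and Mtbp followed with 939 bp, then Zdhhc23 and Gramd1c with 931 bp and Leng1 and Tmc4 with 912 bp. Klhl18 with Kif9 and Ppcs with Zmynd12 were head-to-head sites of 896 bp each.

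In the control list alone, by the same ranking, the widest after Dedd2 and Zfp526 was at Tmem179b and Taf6l (1012 bp, chromosome 19). Eftud2, for a spliceosomal GTPase, and Ccdc103, needed for dynein arms of cilia, followed with 945 bp on chromosome 11. Ttc30a2 and Ttc30a1, for intraflagellar transport, had 940 bp, and Nfkbie and Slc35b2 919 bp. Fam227a and Cby1, a gene of the ciliary base, had a head-to-head site of 903 bp that held starts of both genes. Knop1 with Iqck had 885 bp, and Marveld2 with the checkpoint gene Rad17 878 bp.

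Gene lists, some defined by symbol patterns, were described by counts of genes with a joined-end site, beside 13.7% of all autosomal coding genes (2081 in both lists, 504 for the knockout only, 253 for the control only). Among the 9318 coding genes with any end site the share was 30.5%. Of 96 genes of DNA repair and meiotic recombination, 43 had one (44.8%): 35 in both lists, 6 for the knockout only and 2 for the control only. That list was written by hand and holds members of textbook head-to-head pairs, such as Brca1, Atm, Msh3 and Prkdc. It also holds both genes of Mutyh with Toe1 and of Ung with Alkbh2. Its share thus depends in part on which genes were put in. In both lists was Rad51c, of homologous recombination, with Tex14, needed for germ cell bridges (1077 and 1157 bp). Msh4, of the crossover pathway, with Rabggtb had 858 and 862 bp.

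In the knockout list alone were Hsf2bp, a BRCA2 partner in meiosis, with Rrp1b (752 bp) and the helicase gene Wrn with Purg (706 bp). The resolvase gene Eme1 with Mrpl27 had 473 bp and Rad51b with Zfyve26 471 bp. Msh5, the partner of Msh4, with Sapcd1 (211 bp) and Fancd2 with Emc3 (210 bp) completed the 6 genes. The control list alone had Cntd1, a crossover regulator, with Coa3 (570 bp), and Lig1 with Zswim9 (1309 bp). The Lig1 site overlapped a knockout interval that did not reach both genes.

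Among genes that build the chromosome axis or the synaptonemal complex, 4 of 23 had a joined-end site. Trip13, which removes HORMA proteins from axes, with Brd9 had 936 and 976 bp in the knockout and control, and the meiotic cohesin gene Smc1b with Ribc2 had 967 and 728 bp. In the knockout list alone were Hormad1, for an axis protein, with Golph3l (284 bp) and Terb1, which ties telomeres to the envelope, with Nae1 (454 bp). Of the piRNA pathway 3 of 23 had one, all in both lists: Mov10l1 with Mlc1, Exd1 with Chp1, and Ddx25 with Pus3. Of the pachytene transcription regulators 1 of 23 had one, Kctd19, and of the SRCAP and H2A.Z machinery 1 of 14, Znhit1 itself.

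Histone genes had joined-end sites for 28 of 67 (41.8%): 18 in both lists, 9 in the knockout list alone and 1 in the control list alone. The testis histone pair H2bc1 and H2ac1 had 2 sites in each list, of 764 and 397 bp in the knockout and 616 and 542 bp in the control. Lone knockout sites were narrow: besides H2bc13 and H2ac13, they were at H2bc23 and H2ac23 (326 bp), H2ac23 and H4c17 (304 bp), H2ac12 and H2bc12 (239 bp) and H2bc9 and H3c7 (210 bp). The lone control site was at H2ac11 and H2bc11 (368 bp). All 6 lone sites lie on chromosome 13. Histone genes have near-identical copies, so single histone sites are uncertain.

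Mitochondrial ribosome and respiration genes had 76 of 171 (44.4%): 58 in both lists, 13 for the knockout only and 5 for the control only. Lone knockout sites included Mrpl13, Mrpl10 with Lrrc46 (788 bp) and Mrpl46 with Mrps11 (723 bp), a pair of mitochondrial ribosomal genes that face each other. Sdhd, of respiratory complex II, with the import gene Timm8b had a site of 548 bp in the control list alone. Import, chaperone and proteasome genes had 48 of 153 (31.4%; 40, 4 and 4), and RNA polymerase, splicing and Mediator genes 52 of 161 (32.3%; 44, 4 and 4). In the latter, Prpf31 with Tfpt (854 bp) and Sf3b3 with Cog4 (808 bp), both of the spliceosome, were in the control list alone, and Gtf2h3, of TFIIH, with Eif2b1 (736 bp) in the knockout list alone.

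Cytosolic ribosome genes had 24 of 91 (26.4%; 21, 1 and 2), a pattern that also takes in S6 kinase genes. Centrosome, cilium and flagellum genes had 76 of 310 (24.5%; 56, 10 and 10). Cep57l1 with Sesn1 (886 bp) and Ttc37 with Arsk (821 bp) were in the knockout list alone, and Cfap57 with Ebna1bp2 (842 bp) in the control list alone. The symbol pattern takes in Ttc37, which encodes a subunit of the SKI complex of RNA decay. Zinc finger Zfp genes had 41 of 388 (10.6%; 29, 8 and 4). Receptor, keratin and detoxification genes in clusters had 8 of 1898 (0.421%).

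Some of these differences were smaller when only genes with any end site were counted, where all coding genes stood at 30.5%. The share was then 66.7% of histone genes, 51.4% of mitochondrial ribosome and respiration genes and 51.2% of DNA repair and recombination genes. It was 40.0% for import, chaperone and proteasome genes, 36.9% for centrosome, cilium and flagellum genes and 35.4% for RNA polymerase, splicing and Mediator genes. Cytosolic ribosome genes, at 30.4%, were level with all coding genes, and Zfp genes were at 21.2%.

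Among markers of other testis cells, spermatid markers had 6 of 28 (21.4%), 3 in both lists and 3 in the knockout list alone. They were 6 of the 12 spermatid markers with any end site. Those of the knockout list alone were Tekt2, of flagellar microtubules, with Adprhl2 (723 bp), Izumo1, for sperm-egg fusion, with Fut1 (248 bp), and the kinase gene Tssk3 with Fam229a (184 bp). Among Sertoli cell markers Dhh had one with Rhebl1 in the knockout list alone (847 bp), and 0 of 19 spermatogonial and 0 of 18 Leydig, peritubular, endothelial and immune markers did. The part of other cells in these sites was not tested.

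**Figure D5:**
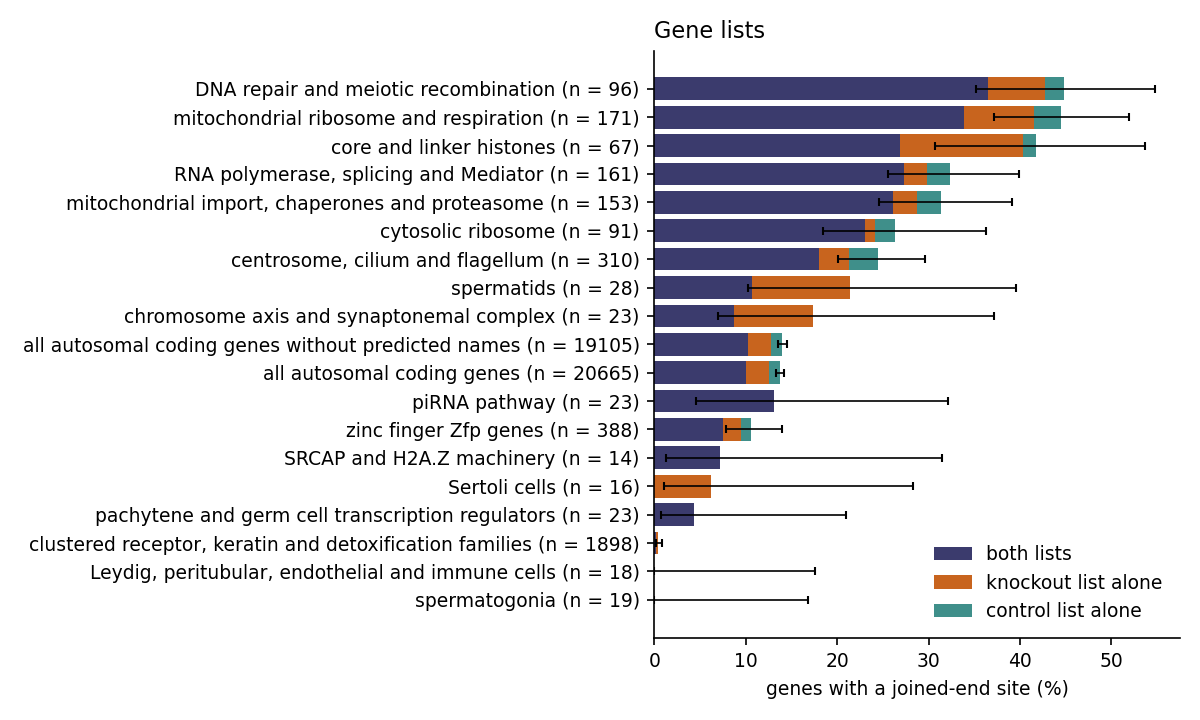
Share (%) of the genes of each list that had a joined-end site in both peak lists, the knockout list alone or the control list alone; black bars are Wilson 95% intervals of the total. DNA repair and recombination (44.8%), mitochondrial (44.4%) and histone genes (41.8%) lie at the top, and all autosomal coding genes are at 13.7%. The DNA repair and recombination list was written by hand and holds members of textbook head-to-head pairs.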

How the data were processed

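ATAC-seq of pachytene spermatocytes gave 4 libraries, 2 per genotype, grouped by the genotype label. Tools named in the submitters' processing notes are MACS2 2.2.4, Picard 2.20.7, Bowtie2 2.3.4.3 and cutadapt 2.5, with build mm10. What each did, the threshold for peaks, a Tn5 shift and a duplicate filter: none is given in the sources used here, nor is it said if a list came from 1 library or from pooled replicates. The authors deposited the 2 lists used here as start and end positions in 3 columns, with no score. The remaining 2 libraries were not analysed here.

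Repeated lines (29656 lines in the knockout list, 24167 in the control list) were collapsed to 21004 and 15376 distinct intervals, and positions are 1-based. Chromosomes 1 to 19 were kept. Gene ends came from the RefSeq table of GRCm38.p6 (20665 autosomal coding genes), and strand from RefSeq promoter windows, which matched 16457 of them (79.6%) and both genes of 1133 of 1487 pairs (76.2%). Promoter windows of chromosome 18 were not used here. A pair's arrangement was read from its 2 nearest ends. Sharing needs 1 bp of overlap. Shares carry Wilson 95% intervals, which cover counting error only, and neighbouring sites are not independent. With 1 list per genotype no test was made. The number of reads behind a list, and so the depth of a site, is unknown.

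Members and gene lists were chosen with earlier results of these data known. Genes were named by rule: Znhit1 and its partner, the 8 widest 2-gene sites of each class without predicted names and the 3 widest per arrangement, 21 textbook pairs, list members at lone sites, and the sites of most genes. Some items the rule names are not reported here. Examples in both lists among the gene lists were chosen after their values were seen. Python 3.11.15, numpy 2.4.6, pandas 2.3.3, scipy 1.17.1 and matplotlib 3.10.9 were used, and the overlap and end assignment were tested on simulated data. Alternatives were windows of 500 bp and 3 kb, overlap of 50% of both peaks, intervals listed at least 2 times, merging within 200 bp, equal numbers of peaks and no predicted genes.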

Additional observations from a re-analysis of the deposited data

How the results depend on the processing

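No paired analysis was possible because 1 list per genotype was analysed. Leaving out a replicate was not possible for the same reason. Of 43 alternative values, 24 stayed within the Wilson interval of the reported share or within 1.5 times the reported count. Several of the 24 could not move. Equal numbers of peaks left the control list whole, and no control site was at 5 or more genes. The share of pairs in both lists does not use overlap, so the 50% rule could not change it. With a window of 3 kb there were 2208 joined-end sites of the knockout and 1897 of the control, with 69.7% and 81.3% shared, 57.3% of pairs in both lists and 55.6% of pairs with a shared site head-to-head. With a window of 500 bp the shares were 81.8%, 90.9%, 73.9% and 81.6%. Requiring overlap of 50% of both peaks gave 66.4% and 74.6% shared. Cutting both lists to intervals listed at least 2 times left 896 knockout sites, with 72.2% and 74.6% shared. It gave 57.5% of pairs in both lists and 78.1% head-to-head. The same number of widest peaks gave 81.5% shared in the knockout. Without sites at 5 or more genes, an alternative added after seeing the data, 72.4% of pairs were in both lists. Merging peaks within 200 bp and leaving out predicted genes moved no result past these bounds. In each setting with a value for both lists, the control list had the larger shared share. Overlap is mutual, so shared counts were close in both lists (1084 and 1091 as reported). The larger share thus goes with the smaller number of control sites, 1242 against 1382. The effect of depth could not be measured, and 1 list per genotype gives no replicate error.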
